A study of Rattus norvegicus with 9 samples.

Results

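The genes described here are those of the rat major histocompatibility complex, called RT1 in this species, together with the genes that supply its proteins with peptides. Members were the genes whose only symbol in the array's annotation began with RT1-, and 12 further genes sought by name, of which 11 were found; Nlrc5 had no probe with 1 symbol. This gave 46 genes of 14497, namely 9 class II genes, 26 genes of the class I region and 11 genes of loading, processing and control. The probe with the highest mean stood for a gene, and 2 of the 46 genes had a second probe. Of the 46 genes 40 lie on chromosome 20. Of the members, 42 had a mean level above the 25th percentile of all probes, and the other 4 were class I region genes of the M group.

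Total RNA of lung came from 3 Wistar rats with metabolic syndrome (MetS), described as male, and 4 Wistar controls whose sex the labels do not state. The MetS rats had 30% sucrose in their only drink for 24 weeks from weaning, while controls drank water. All rats ate standard chow and were fasted for 7 hours before tissue was taken. A sample from each rat went onto a whole-transcript expression array, and MetS animal 1 and control animal 1 had a technical replicate, so 9 arrays stood for 7 animals. Values are log2 expression per probe, and n counts animals. All 6 lung cell markers examined (among them Sftpc, Scgb1a1 and Ager) lay above that percentile. The SD over all probes of an animal was 1.93, 1.90 and 1.88 in MetS and 1.85, 1.77, 1.76 and 1.88 in controls, so controls 2 and 3 had the narrowest spread. Among controls only control 4 was as wide as a MetS animal, so this SD is partly tied to the group. A fit with it as a covariate cannot fully separate the SD from the group. Values that touch a result are given with it.

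MHC class I molecules, made of a heavy chain and the light chain B2m, show peptides from inside the cell to CD8 T cells and natural killer cells. The peptides are cut by the proteasome, whose immune form holds the subunits Psmb8, Psmb9 and Psmb10, are pumped into the endoplasmic reticulum by Tap1 and Tap2, and are loaded with the help of tapasin, the product of Tapbp. Class II molecules show peptides from endosomes to CD4 T cells. They travel with the invariant chain Cd74, which cathepsin S (Ctss) cleaves, and are transcribed under the control of Ciita. In lung, class II is known from dendritic cells, B cells and macrophages and also from alveolar type 2 cells. RT1 genes are very similar to each other and vary between animals, so a probe may bind RNA of several genes and may bind alleles unequally. All values below are those of the probe, and the part of alleles or of shared binding in any difference was not tested.

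Class II promoters are known for a conserved set of boxes that recruit Ciita, the last of which, the Y box, holds CCAAT or its complement ATTGG. RefSeq promoter windows of assembly GRCr8, from 250 bases before to 50 bases after the start site, were found for 41 of the 46 members, and 8 of the 9 class II genes were among them. CCAAT, searched on both strands, was present in 8 of 8 class II windows, 15 of 23 class I windows and 6 of 10 others, against 37.5% of all 33469 windows. The letters TGACG, part of a second box (X2), were in 1 of 8 class II windows, that of RT1-Ba, and in 21.2% of all windows. The stretch around the match nearest to the start site is printed for the class II genes because all 8 windows hold a match. Capitals mark CCAAT or ATTGG. The nearest match is CCAAT in RT1-Db1 and RT1-DOb, where ATTGG lies farther from the start site, and ATTGG in the others. Whether a match is a Y box was not tested.

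RT1-Ba, chr20:4576969-4577033, + strand: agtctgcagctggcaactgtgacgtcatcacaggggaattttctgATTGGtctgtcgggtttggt
RT1-Bb, chr20:4604160-4604224, - strand: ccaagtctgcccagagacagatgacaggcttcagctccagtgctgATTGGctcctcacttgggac
RT1-Da, chr20:4515321-4515385, + strand: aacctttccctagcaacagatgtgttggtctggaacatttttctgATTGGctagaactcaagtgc
RT1-Db1, chr20:4560198-4560262, - strand: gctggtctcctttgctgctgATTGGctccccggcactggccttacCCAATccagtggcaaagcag
RT1-DMa, chr20:4712350-4712414, - strand: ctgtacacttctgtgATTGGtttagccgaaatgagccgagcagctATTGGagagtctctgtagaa
RT1-DOa, chr20:4758511-4758575, - strand: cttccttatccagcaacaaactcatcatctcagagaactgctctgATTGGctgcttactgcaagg
RT1-DOb, chr20:4627561-4627625, - strand: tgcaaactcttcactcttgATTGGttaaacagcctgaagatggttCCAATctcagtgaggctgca
RT1-Ha, chr20:4772234-4772298, - strand: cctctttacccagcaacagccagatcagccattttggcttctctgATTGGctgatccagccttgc

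The interferon-stimulated response element is a promoter motif through which interferon switches on peptide supply genes. Searched as GAAA, any 2 bases and GAAA on both strands, it was in 7 of 10 windows of the loading, processing and control genes, 3 of 23 class I windows and 0 of 8 class II windows, against 3.92% of all windows. The 7 were those of Tap1, Tap2, Tapbp, Psmb8, Psmb10, B2m and Ctss. The windows of Tap1 and Psmb9, which are read in opposite directions, share 44 bases, and their start sites are 457 bases apart; the motif was not in the Psmb9 window. Stretches of 6 of these genes are printed because their values are compared below, with the motif in capitals; in Tapbp 2 overlapping matches are marked.

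Tap1, chr20:4668635-4668684, - strand: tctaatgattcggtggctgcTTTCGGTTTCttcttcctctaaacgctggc
Tap2, chr20:4652308-4652357, - strand: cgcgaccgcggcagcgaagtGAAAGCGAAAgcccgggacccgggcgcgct
Tapbp, chr20:4967868-4967917, - strand: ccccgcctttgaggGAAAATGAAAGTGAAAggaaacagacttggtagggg
Psmb8, chr20:4657006-4657055, - strand: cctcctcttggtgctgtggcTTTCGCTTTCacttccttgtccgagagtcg
Psmb10, chr19:50743280-50743329, - strand: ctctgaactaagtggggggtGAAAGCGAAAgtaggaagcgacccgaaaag
B2m, chr3:129549160-129549209, + strand: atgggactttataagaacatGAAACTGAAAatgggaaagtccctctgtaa

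The question was whether lung RNA of MHC and antigen presentation genes differed between MetS rats and controls. None of the 46 genes passed the test over all 28826 probes (limma, adjusted p under 0.05), and neither did any other probe (0% of all probes); the smallest adjusted p of a member was 0.324. At an unadjusted p under 0.05, 2 members were higher in MetS, RT1-N2 and Psmb8, where 3.82% of all probes were, and 1 was lower, RT1-M2, where 9.91% of all probes were. The members' share was thus close to or under that of the table as a whole. Without overlap between the groups, 2 members were higher (RT1-N2 and RT1-CE4) and 1 lower (RT1-M2), against 4.88% and 6.84% of all probes. The median difference, MetS minus control, was -0.04 for class II, 0.07 for the class I region and 0.01 for the other genes. It was 0.01 for all probes and 0.04 for the genes with 1 symbol.

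**Figure D1:**
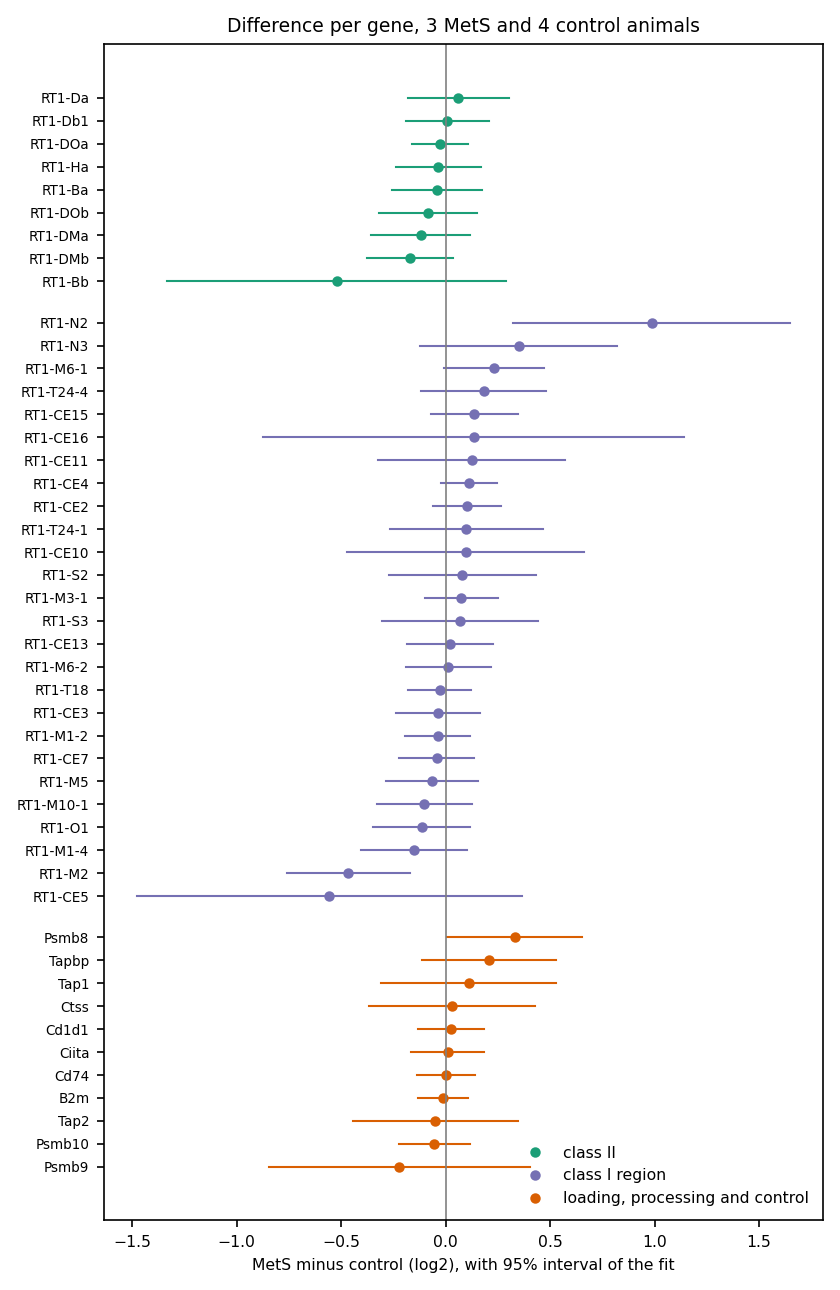
Difference between 3 MetS and 4 control animals for each of the 46 genes on the log2 scale (MetS minus control; points), with the 95% interval of the limma fit (lines), in 3 groups of genes. The intervals of RT1-N2, RT1-M2 and Psmb8 leave out 0 before adjustment, and those of RT1-CE16, RT1-CE5 and RT1-Bb are among the widest.

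The invariant chain Cd74 and the class II chains RT1-Da, RT1-Db1 and RT1-Ba differed by at most 0.06 between the group means, while RT1-Bb differed by more. Cd74 had 13.09, 13.14 and 13.23 in MetS lungs, against 13.15, 13.15, 13.11 and 13.19 in control lungs, a difference of 0.00 with a 95% interval from -0.14 to 0.14. Its values lie close to the highest value of the table, 14.2, where an array has little room to show a rise. RT1-Da, counterpart of the human HLA-DR alpha chain, had 11.96, 11.72 and 11.79 in MetS, against 11.99, 11.70, 11.66 and 11.69 in controls, and its interval ran from -0.18 to 0.30. Animal 1 of either group gave its highest values, and the groups overlapped. RT1-Db1, a beta chain partner of RT1-Da, had 9.002, 9.30 and 9.13 in MetS and 9.12, 9.13, 9.07 and 9.23 in controls (interval -0.19 to 0.21). RT1-Ba, the counterpart of the HLA-DQ alpha chain, had 10.81, 10.76 and 10.80 in MetS, against 10.81, 10.69, 10.78 and 11.05 in controls (interval -0.25 to 0.17). The outermost bounds of these 4 intervals were -0.25 and 0.30. With the array-wide SD as a covariate the difference of RT1-Ba was -0.21 (limma, unadjusted p = 0.0717), and without controls 2 and 3 it was -0.14.

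RT1-Bb, the beta chain that pairs with RT1-Ba, was the class II gene with the widest spread. It had 8.91, 10.55 and 9.93 in MetS, against 10.16, 10.48, 10.15 and 10.47 in controls. MetS animal 1 stood 1.02 below the next MetS animal, and MetS animal 2 stood above every control. The mean difference was -0.52 (interval -1.33 to 0.29; limma, adjusted p = 0.503), and without MetS animal 1 it was -0.08. Both arrays of that animal read low, 8.89 and 8.94, against 10.15 and 10.17 on both arrays of control animal 1.

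The peptide editors and their regulators are class II molecules that stay inside the cell. RT1-DMa and RT1-DMb form DM, which exchanges the invariant chain fragment for peptide, and RT1-DOa and RT1-DOb form DO, which restrains DM. RT1-DMb had 10.32, 10.60 and 10.51 in MetS, against 10.77, 10.64, 10.58 and 10.60 in controls, a difference of -0.17 (interval -0.38 to 0.03; limma, adjusted p = 0.415). RT1-DMa had 10.39, 10.60 and 10.69 in MetS, against 10.72, 10.52, 10.67 and 10.82 in controls (interval -0.36 to 0.12). In both DM genes the lowest animal was MetS animal 1, and the groups overlapped. RT1-DOa had 7.29, 7.38 and 7.42 in MetS and 7.39, 7.38, 7.42 and 7.37 in controls. RT1-DOb had 7.64, 7.82 and 7.85 in MetS and 7.77, 7.69, 8.02 and 7.94 in controls. RT1-Ha, counterpart of the HLA-DP alpha chain, had 6.82, 7.04 and 7.12 in MetS and 7.02, 6.93, 7.05 and 7.11 in controls. Ciita, the switch of class II transcription, had 7.44, 7.68 and 7.65 in MetS, against 7.58, 7.57, 7.57 and 7.61 in controls, and its interval ran from -0.16 to 0.18. Ctss, the protease that trims the invariant chain, had 11.51, 10.90 and 11.11 in MetS, against 11.30, 11.01, 10.92 and 11.36 in controls. Of the 9 class II genes 7 had a lower mean in MetS, none without overlap and none at an unadjusted p under 0.05. Of the 14497 genes with 1 symbol 5502 had a lower mean. Without MetS animal 1 the class II genes with a lower mean numbered 6, with a median difference of -0.02.

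RT1-N2, a nonclassical class I gene, had the widest difference of all members. It had 9.59, 8.83 and 9.52 in MetS lungs, against 8.70, 7.69, 8.34 and 8.57 in control lungs. The groups did not overlap, but MetS animal 2 stood only 0.12 above control 1. The means were 9.31 ± 0.42 (SD, n = 3) in MetS and 8.33 ± 0.45 (SD, n = 4) in controls, a difference of 0.99 (interval 0.32 to 1.65) or 1.98-fold, which missed the threshold after adjustment (limma, adjusted p = 0.324). This gene was known beforehand for its wide difference, so its values are a description. The 2 arrays of MetS animal 1 gave 9.57 and 9.61, and those of control 1 gave 8.77 and 8.64. With the array-wide SD as a covariate the difference was 0.56 (limma, unadjusted p = 0.171), and without control 2 it was 0.77. In that covariate fit the members higher at an unadjusted p under 0.05 were RT1-S2 and RT1-CE11 in place of RT1-N2 and Psmb8. The share of all probes in that fit was not taken, and its covariate is partly tied to the group. The promoter window of RT1-N2, printed because of its difference, held 1 CCAAT (in capitals) and no match to the interferon motif.

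RT1-N2, chr20:2646080-2646379, + strand: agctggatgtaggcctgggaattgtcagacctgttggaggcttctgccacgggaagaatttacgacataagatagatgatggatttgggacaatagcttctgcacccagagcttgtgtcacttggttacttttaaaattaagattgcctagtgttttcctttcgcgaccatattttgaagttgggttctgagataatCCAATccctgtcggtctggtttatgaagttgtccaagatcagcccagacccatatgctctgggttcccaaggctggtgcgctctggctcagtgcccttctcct

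RT1-M2, a class I gene at the far end of the complex, was lower in MetS. It had 7.65, 7.69 and 8.08 in MetS, against 8.30, 8.10, 8.27 and 8.41 in controls, with no overlap but only 0.02 between MetS animal 3 and control 2. The difference was -0.47 (interval -0.76 to -0.17; limma, adjusted p = 0.324), and it was -0.51 with the array-wide SD as a covariate. RT1-CE4 had 9.40, 9.35 and 9.48 in MetS, against 9.27, 9.30, 9.33 and 9.29 in controls, also without overlap, but its difference was only 0.11 (limma, adjusted p = 0.417). RT1-M6-1, whose level is under the 25th percentile, had 6.33, 6.14 and 6.30 in MetS, against 6.19, 6.12, 5.93 and 5.86 in controls. RT1-N3, of the same group of genes as RT1-N2, had 8.77, 8.90 and 8.76 in MetS, against 8.77, 8.40, 7.93 and 8.74 in controls. Its MetS values lay within 0.14 of each other while controls 2 and 3 were low, and the difference of 0.35 was -0.10 with the array-wide SD as a covariate.

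Further class I genes with the smaller p-values of this group overlapped between MetS and controls. RT1-CE15 had 9.997, 10.18 and 9.94 in MetS and 10.05, 9.90, 9.78 and 9.88 in controls. RT1-CE2 had 8.20, 8.15 and 8.23 in MetS and 8.12, 7.95, 8.12 and 8.16 in controls. RT1-T24-4 had 9.84, 9.78 and 9.77 in MetS and 9.85, 9.78, 9.36 and 9.47 in controls. All 3 differences were under 0.2 on the log2 scale. RT1-M1-4 had 5.73, 5.83 and 5.83 in MetS and 5.80, 5.93, 6.22 and 5.83 in controls, and RT1-O1 had 6.51, 6.55 and 6.72 in MetS and 6.85, 6.55, 6.62 and 6.82 in controls. Over the class I region 16 genes had a higher and 10 a lower mean in MetS, beside 8995 higher and 5502 lower of the 14497 genes with 1 symbol. The median difference of 0.07 was -0.06 without MetS animal 2 and 0.005 without control 4. RT1-CE7 had 2 probes that read unlike each other, with a difference of -0.04 on the brighter and 0.39 on the other (limma, adjusted p = 0.799 and 0.417). The second probe of RT1-T24-4 had a difference of 0.006, against 0.18 on the brighter. The 11 class I genes not described singly (RT1-CE3, RT1-CE13, RT1-M1-2, RT1-M3-1, RT1-M5, RT1-M6-2, RT1-M10-1, RT1-S2, RT1-S3, RT1-T18 and RT1-T24-1) differed by -0.10 to 0.10 between the groups. Of these, RT1-S2 had 6.55, 6.66 and 6.72 in MetS and 6.40, 6.60, 6.94 and 6.31 in controls. Its difference of 0.08 was 0.44 with the array-wide SD as a covariate (limma, unadjusted p = 0.0074, adjusted p = 0.999) and 0.29 without controls 2 and 3. Another 4 probes are annotated to several RT1 genes at once, the classical RT1-A genes among them, and were not used.

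**Figure D2:**
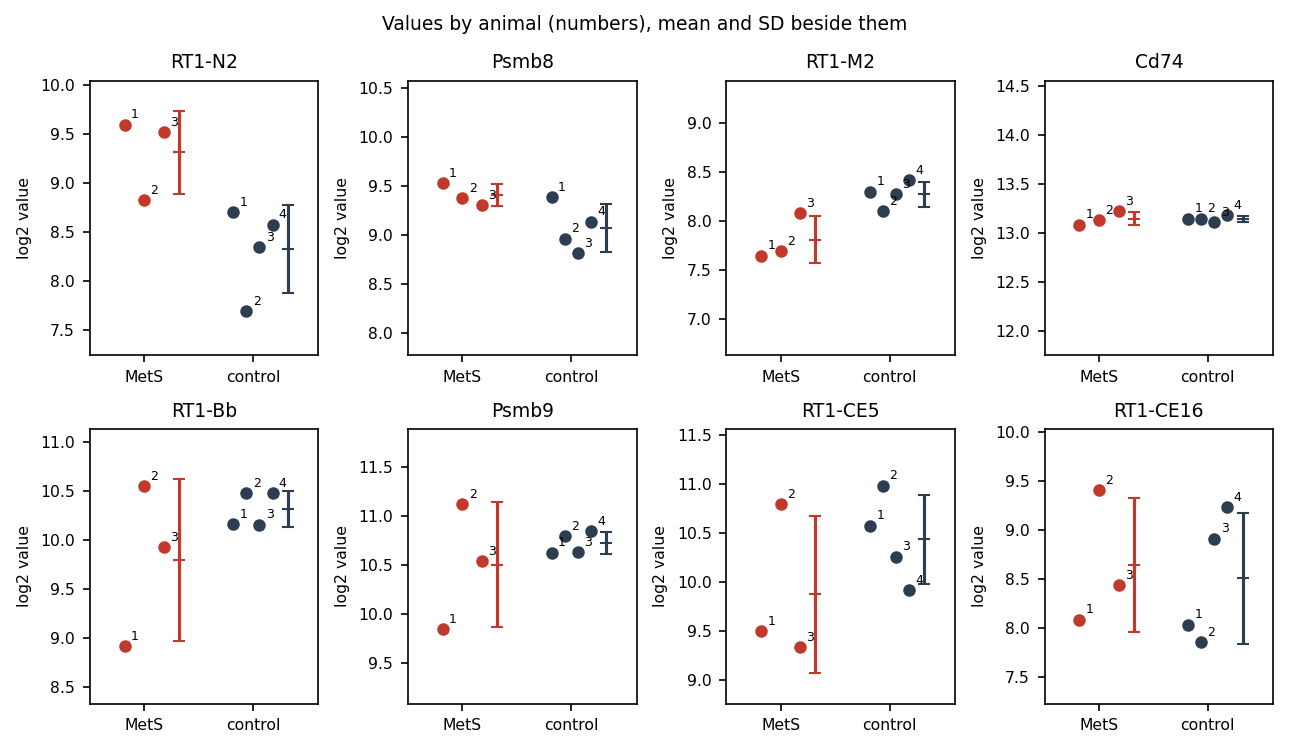
Log2 values of 8 genes by animal (points, numbered as in the labels), MetS left and control right, with mean and SD (bars; n = 3 and n = 4) beside them; each panel spans the same height. RT1-N2 and RT1-M2 do not overlap between the groups, Cd74 is flat, and in RT1-Bb, Psmb9, RT1-CE5 and RT1-CE16 animals of the same group lie far apart.

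Peptide supply genes of class I were mostly flat on average. B2m, the class I light chain, had 13.64, 13.66 and 13.66 in MetS and 13.63, 13.69, 13.66 and 13.67 in controls, again near the top of the range of the array (interval -0.13 to 0.11). Psmb8 had 9.53, 9.38 and 9.31 in MetS, against 9.38, 8.96, 8.82 and 9.14 in controls. MetS animal 3 lay below control 1, so the groups overlapped, and the difference of 0.33 (interval 0.01 to 0.65; limma, adjusted p = 0.359) was 0.05 with the array-wide SD as a covariate (unadjusted p = 0.754) and 0.15 without controls 2 and 3. Psmb10 had 9.22, 9.20 and 9.01 in MetS and 9.25, 9.19, 9.14 and 9.19 in controls. Tapbp had 8.78, 8.93 and 8.87 in MetS and 8.89, 8.73, 8.30 and 8.68 in controls, where control 3 was the lowest. Cd1d1, which shows lipids to natural killer T cells, had 8.90, 8.97 and 9.09 in MetS and 8.997, 8.88, 8.99 and 8.97 in controls.

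Psmb9 and the transporter genes had a wide spread among MetS animals instead. Psmb9 had 9.85, 11.12 and 10.53 in MetS, against 10.62, 10.79, 10.62 and 10.84 in controls. MetS animal 1 was lower than every other animal by at least 0.69, and MetS animal 2 was the highest. Tap1 had 8.70, 9.49 and 9.04 in MetS and 8.999, 8.91, 8.82 and 9.15 in controls. Tap2 had 7.92, 8.62 and 8.24 in MetS and 8.24, 8.28, 8.20 and 8.54 in controls. In both transporter genes MetS animal 1 was the lowest and MetS animal 2 the highest of the 7. The arrays of MetS animal 1 gave 9.83 and 9.86 for Psmb9, 8.70 and 8.71 for Tap1, and 7.89 and 7.95 for Tap2.

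RT1-Bb, RT1-DOb, Tap2, Psmb8, Tap1 and Psmb9 follow each other in this order in the annotation of GRCr8. MetS animal 1 had the lowest value of the 7 animals in 5 of these 6 genes and the highest in the other, Psmb8. These 6 genes were not a group set beforehand. RT1-DMb and RT1-DMa, which follow next, were also lowest in MetS animal 1, whereas RT1-Ba, just before RT1-Bb, was not. Over all members MetS animal 1 was lowest in 20 of 46 genes, among them 7 of the 9 class II genes and 8 of the 26 class I region genes, whereas it was lowest in 19.2% of all probes. MetS animal 2 was the highest in 15 of 46 members, against 15.6% of all probes, and the lowest in 1. MetS animals 1 and 2 thus stood at opposite ends for RT1-Bb, Tap1, Tap2 and Psmb9, while MetS animal 3 lay between them.

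**Figure D3:**
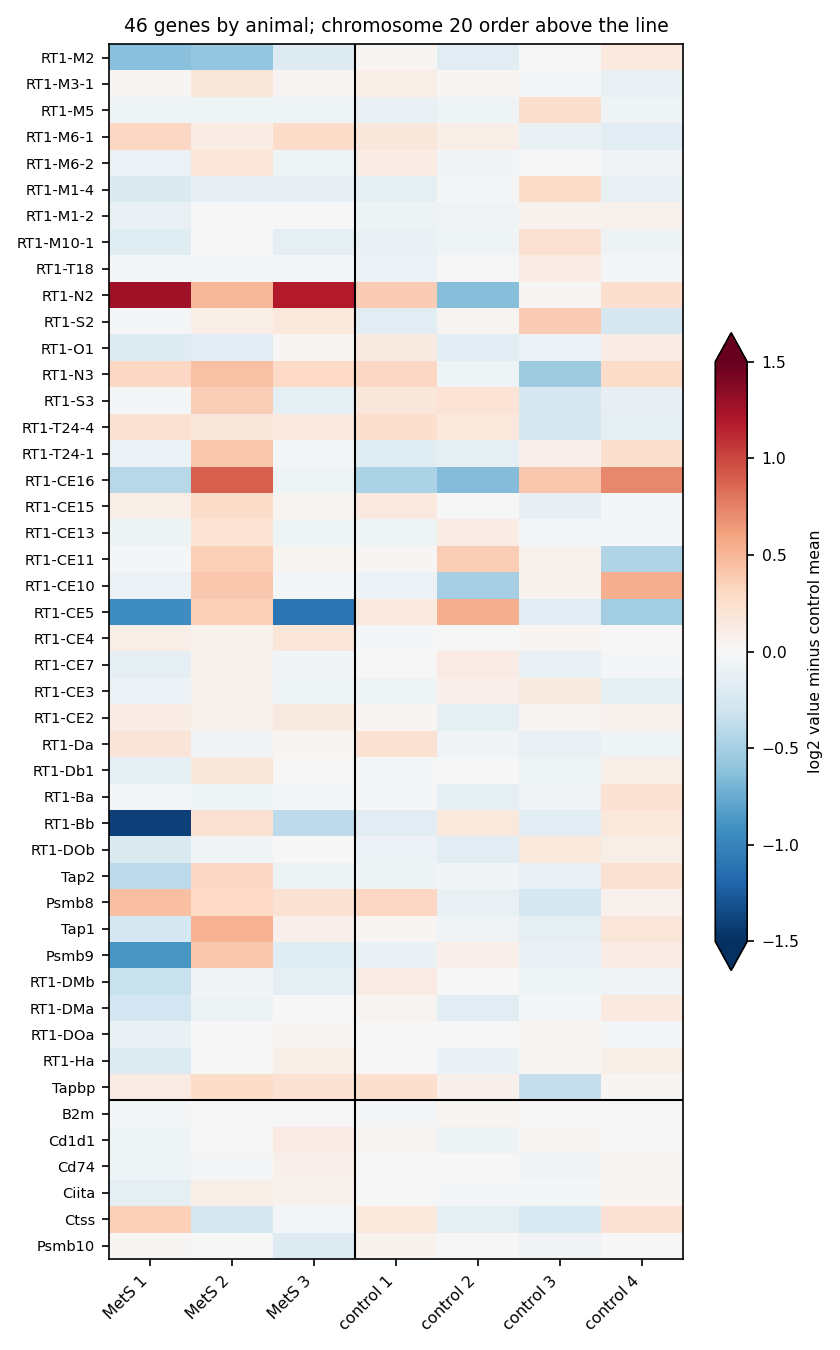
Log2 value minus the control mean for 46 genes (rows) in 7 animals (columns, MetS left of the vertical line), from blue (lower) to red (higher); genes above the horizontal line are in their order on chromosome 20. MetS animal 1 is low at RT1-Bb, Tap2, Tap1 and Psmb9 and high at RT1-N2, and RT1-CE16 and RT1-CE5 differ between animals of both groups.

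Spread within groups was wide for some RT1 genes and narrow for others at the same brightness. With all probes in 20 groups by mean level, 10 of the 46 members had a within-group SD above the 90th percentile of their group, which 10% of probes exceed by definition: 6 in the class I region, 1 in class II (RT1-Bb) and 3 others (Psmb9, Tap1 and Ctss). RT1-CE16 had the widest SD, 0.67, against a median of 0.13 for probes of its brightness. It had 8.09, 9.40 and 8.44 in MetS, against 8.03, 7.85, 8.91 and 9.23 in controls, so MetS animal 2 and controls 3 and 4 were high and the others low. RT1-CE10 had 8.97, 9.47 and 9.04 in MetS and 8.97, 8.56, 9.11 and 9.60 in controls, with MetS animal 2 and control 4 high again. RT1-CE5 had 9.50, 10.80 and 9.34 in MetS, against 10.58, 10.99, 10.26 and 9.92 in controls, where MetS animals 1 and 3 were the lowest. RT1-CE11 had 7.74, 8.12 and 7.81 in MetS and 7.78, 8.14, 7.83 and 7.32 in controls. Its difference of 0.12 was 0.51 with the array-wide SD as a covariate (limma, unadjusted p = 0.0455, adjusted p = 0.999). Technical replicates mostly differed by less. For RT1-CE16 the arrays of MetS animal 1 lay 0.17 apart and those of control 1 lay 0.36 apart, and for RT1-CE5 the arrays of MetS animal 1 read 9.45 and 9.55. The largest gap of a member was 0.40, for RT1-O1 in control 1. The median absolute difference over the 46 members was 0.07 between the arrays of MetS animal 1 and 0.05 between those of control 1. At the other end, B2m had an SD of 0.02 and Cd74 of 0.05.

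**Figure D4:**
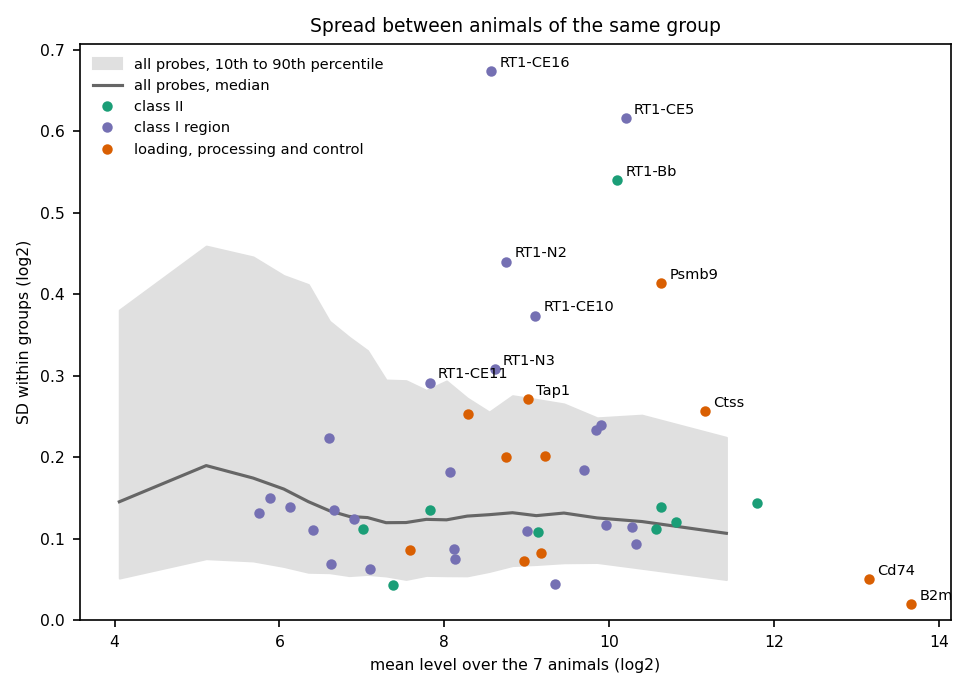
SD between animals within groups against mean level, both on the log2 scale, for the 46 genes (points), with the median (line) and the 10th to 90th percentile (shade) of all probes in 20 groups by level. RT1-CE16, RT1-CE5, RT1-Bb, RT1-N2, Psmb9 and RT1-CE10 lie clearly above the shade, whereas B2m and Cd74 vary little.

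Whether class II genes followed Cd74, and peptide supply genes B2m, over the 7 animals was examined in 16 relations. None passed after adjustment (exact permutation test, smallest adjusted p = 0.392). For Cd74, Pearson r lay between -0.22 with RT1-Da and 0.76 with RT1-Ha. The relation with RT1-Ha had an exact permutation p of 0.0492 (Spearman rho 0.68, p = 0.11, adjusted p = 0.421), and r was 0.36 without MetS animals 1 and 3, the farthest in Cd74. Cd74 spanned only 0.14 over the animals, and B2m only 0.06, about as much as the 0.05 between the arrays of control 1. No relation with B2m is therefore given. Both groups are pooled in these values, and the array-wide spread is shared by all genes.

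Other genes of the same pathways were read from lists, beside 8995 of all 14497 genes with 1 symbol that had a higher mean in MetS (median difference 0.04), or 7939 without controls 2 and 3. Of 13 further genes of class I loading and peptide supply 11 had a higher and 2 a lower mean in MetS, with 0 at an unadjusted p under 0.05 and a median difference of 0.05. Of 11 further genes of class II processing 8 were higher and 3 lower, also with 0 at that threshold (median 0.03). Of 16 measured genes that control MHC transcription 13 were higher and 3 lower. Without controls 2 and 3 the genes higher in MetS numbered 9 of 13, 5 of 11 and 8 of 16 in these 3 lists. Rfxap, a subunit of the factor that binds class II promoters, was without overlap at 9.15 ± 0.05 (SD, n = 3) in MetS and 8.98 ± 0.11 (SD, n = 4) in controls (limma, adjusted p = 0.364). Nfyb, a subunit of the factor that binds CCAAT, was so too at 8.13 ± 0.04 (SD, n = 3) in MetS and 7.95 ± 0.18 (SD, n = 4) in controls (limma, adjusted p = 0.454). Its groups all but touched, with 8.086 in MetS animal 3 and 8.080 in control 1, while controls 2 and 3 had 7.93 and 7.70. Thus 2 of 16 genes of this list were higher without overlap, where 4.88% of all probes were. Of 15 interferon-inducible genes 14 were higher and 1 lower, with a median difference of 0.22. At an unadjusted p under 0.05, 3 of the 15 were higher, where 3.82% of all probes were. Without controls 2 and 3 the count was 14 of 15 again, but the mean over the list overlapped between the groups, with 9.02 in MetS animal 3 and 9.29 in control 1. Control 4, the only other control left, had a low mean of 8.64, so that count leans on 1 animal. The 3 genes were Rsad2, an antiviral enzyme, at 8.80 ± 0.30 in MetS and 8.15 ± 0.47 in controls, Ifit2 at 9.14 ± 0.12 in MetS and 8.90 ± 0.15 in controls, and Ifit1 at 9.89 ± 0.77 in MetS and 8.18 ± 1.33 in controls (SD, n = 3 and n = 4). Ifit1 was 6.27 in control 2, and its difference of 1.72 was 1.08 without that animal. None of the genes of these 4 lists passed over all probes.

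In whole lung, fewer cells of a type and less RNA per cell cannot be told apart. The counts of markers below stand beside 8995 higher and 5502 lower of the 14497 genes with 1 symbol. Counts without controls 2 and 3 stand beside 7939 higher and 6555 lower. Of 9 dendritic cell markers 6 were lower and 3 higher in MetS. Clec9a and Batf3, among those lower, overlapped between the groups, with differences of -0.05 and -0.07. Xcr1, a receptor of cross-presenting dendritic cells, was without overlap at 7.61, 7.51 and 7.19 in MetS and 7.81, 7.79, 7.66 and 7.79 in controls (limma, adjusted p = 0.324). Of 5 measured B cell markers 4 were lower. The kinase gene Blk was without overlap at 7.39, 7.52 and 7.59 in MetS, against 7.62, 7.76, 7.83 and 7.67 in controls (limma, adjusted p = 0.33). Xcr1 and Blk were thus 1 of 9 and 1 of 5 markers lower without overlap, against 6.84% of all probes. Of 8 macrophage markers 5 were lower, and of 8 T cell markers 8 were higher; without controls 2 and 3 these counts were 4 and 3, and 8 of 9 dendritic cell and 5 of 5 B cell markers were lower. By mean over a list, B cell markers lay between 8.05 and 8.40 in MetS and between 8.20 and 8.55 in controls, T cell markers between 8.07 and 8.74 in MetS and 8.17 and 8.53 in controls, and macrophage markers between 9.02 and 9.41 in MetS and 9.17 and 9.28 in controls. MetS animal 1, the lowest in most class II genes, also had the lowest mean of the B cell list (8.05) and of the T cell list (8.07) and the highest of the macrophage list (9.41). Dendritic cell markers lay between 7.82 and 7.88 in MetS and between 7.811 and 7.998 in controls. The leukocyte marker Ptprc lay between 11.56 and 11.64 in MetS and between 11.48 and 11.60 in controls, and the alveolar type 2 list lay between 12.63 and 12.69 in MetS and 12.62 and 12.68 in controls. The part of these cell types in the values of the members was not tested.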

How the data were processed

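The authors deposited log2 expression of 28826 probes on each array; the submitters' processing notes name RMA, limma and R 2.11.0 without saying what each did. RNA with an integrity number of at least 6 was used, per the labels' protocols. No source used here names a genome build for the array. Array medians lay between 7.64 and 7.69 and array SDs between 1.76 and 1.94.

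Both arrays of an animal were averaged. MetS minus control was fitted on the whole table with lmFit and eBayes of limma 3.58.1 (R 4.3.3; 7.28 degrees of freedom), with Benjamini-Hochberg adjustment over all probes, a threshold of 0.05 and no filter on low values. The labels name no batch of arrays, so none was examined. Correlations had exact permutation tests (scipy 1.17.1, Python 3.11.15). The number of animals limits the precision.

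Probes were named from the platform's annotation; 15209 had 1 symbol, 306 several and 13311 none. All 46 members matched a gene identifier of GRCr8, of which names, order and promoter sequences were used. Members, lists and named genes were chosen with earlier results of these data known. Class II genes, genes of loading, processing and control, and RT1-N2 were described whatever their value, with the 10 other class I genes of smallest p and the 5 of widest range within a group; in other lists, genes were named for a small p or for groups that did not overlap. The alternatives are given in the closing section. Not every pair of same-numbered animals deviated together (correlations 0.27, -0.12 and 0.34), so numbers were not taken as pairs.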

Additional observations from a re-analysis of the deposited data

Results flagged for a closer look

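Within the 4 controls, 3 of the 46 genes had an animal set apart from the other 3 by a gap larger than Dixon's 95% criterion allows; chance flags about 1 in 20 groups. RT1-Da was 11.99 in control 1, against 11.66 to 11.70 in the other controls, and both arrays of that animal read high (12.01 and 11.98). RT1-M10-1 was 6.02 in control 3, against 5.71 to 5.74, and RT1-M5 was 7.17 in control 3, against 6.82 to 6.87. Control 3 had the narrowest array-wide spread and was the highest animal in 23.9% of all probes. By mean level RT1-M10-1 and RT1-M5 lay at percentiles 13.4 and 33.9 of all probes. The part of the array-wide spread in these 2 flags was not tested. Groups of 3 are not examined by this criterion, so the low values of MetS animal 1 at RT1-Bb and Psmb9 are given as values only.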

How the results depend on the processing

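No member passed over all probes under any of the alternatives except the fit with the replicate number as a block. That replicate block, on animals 1 to 3 of each group, called 138 probes higher and 1879 lower and 1 member higher, RT1-N2 at 1.07 (adjusted p = 0.0183); 2 members were lower at an unadjusted p under 0.05. The labels do not pair animals by number, and 1 of 3 MetS animals correlated best with its own number. So few animals cannot settle whether same-numbered animals have something in common, and this was not tested. RT1-N2 kept its sign in 19 of 19 alternatives, between 0.56 and 1.23, with adjusted p from 0.0183 to 0.999. RT1-M2 did so in 19 of 19, between -0.60 and -0.39, and Psmb8 in 19 of 19, between 0.05 and 0.43. These counts include settings that altered only the moderation, the probes kept or the symbols. Such settings left every difference as it was, so they could not change a sign. The number of members higher at an unadjusted p under 0.05 was 1 with array weights and with the first array of each animal alone. When animals were left out in turn it lay between 1 and 3 (3 without control 1). The number lower then lay between 1 and 5, the 5 without MetS animal 2, and was 2 without controls 2 and 3 together. The share of all probes at that threshold was taken in the main fit alone. Member counts under other fits can therefore not be read as above or below that of all probes. The causes of these changes in count were not tested. Class medians moved by under 1 SD, but that of the class I region (0.07) was -0.06 without MetS animal 2 and 0.005 with the replicate block, and that of the loading, processing and control genes (0.01) lay between -0.01 and 0.09 when animals were left out in turn. With the array-wide SD as a covariate, RT1-S2 (0.44) and RT1-CE11 (0.51) took the place of RT1-N2 and Psmb8 among members higher at an unadjusted p under 0.05. The counts of list genes without controls 2 and 3, and Ifit1 without control 2, were added after seeing the data. Of 872 gene values under the alternatives 95 changed sign, in settings that included fits with animals left out. Those that moved by over 1 SD numbered 21, mostly with the array-wide SD as a covariate or after another quantile normalization. The 872 include the settings that left every difference as it was. Updating symbols changed no member.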
